A study of Mus musculus with 8 samples.

Results

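The bexarotene-only promoter peaks are the places near gene starts where a myogenin peak was called in myoblasts differentiated with bexarotene and none was called in the control. An interval of the bexarotene myogenin list was taken when no control interval overlapped it by 1 bp or more and when its center lay within 1 kb of a transcription start site (TSS) of a protein-coding transcript in the GENCODE annotation of the mm9 build. The members were thus chosen by measured values, the myogenin peak calls of both libraries, and their absence from the control list is a description and not a finding. This gave 563 peaks of 3645 bexarotene-only peaks and of 6642 intervals in the bexarotene list. As background, 54.9% of all bexarotene intervals had no control overlap, 12.5% lay within 1 kb of a TSS, and 67.8% of the bexarotene promoter intervals had no control overlap. The set is therefore the larger share of the bexarotene promoter intervals, and the remaining 267 overlapped a control interval.

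The data come from C2C12, a mouse myoblast line of C3H origin, moved from growth medium to low horse serum for 24 h without agent (Ctl) or with 50 nM bexarotene (Bex), an agonist of the retinoid X receptor (RXR). Chromatin immunoprecipitation with sequencing was done for myogenin and for the acetyltransferase p300, with 1 library per condition and factor. All groups share the cell line and the differentiation medium, and a single line in culture stands for muscle here. The peak lists used here hold coordinates with no tag counts or scores, so the reads behind a peak and its strength cannot be read from them, and a peak lost below the caller's threshold cannot be told apart from a site with no binding.

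Myogenin is a basic helix-loop-helix factor of the myogenic regulatory family that pairs with E proteins and binds the E-box CANNTG, with CAGCTG and CACCTG (or its reverse complement CAGGTG) as common forms in muscle promoters and enhancers. It acts after MyoD in the differentiation of myoblasts into fused myotubes and is known for binding close to the promoters of contractile genes. The acetyltransferase p300 acetylates histones at active promoters and enhancers. RXR is a nuclear receptor that works alone or with partner receptors on direct repeats of AGGTCA. In what follows an E-box is CAGCTG or CACCTG or CAGGTG on either strand with all its letters within 50 bp of the peak center, unless another window is named.

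The central 100 bases of 9 peaks at genes of muscle function are shown first because each carries an E-box within 50 bp of the peak center, in capitals, in the mm9 sequence read 5′ to 3′ along the strand of the gene. The genes are Mybph (chr1:136089933-136090032, plus strand), Tnnt1 (chr7:4468115-4468214, minus strand), Tpm2 (chr4:43536625-43536724, minus strand), Eno3 (chr11:70470624-70470723, plus strand), Kbtbd10 (chr2:69507994-69508093, plus strand), Trim72 (chr7:135147404-135147503, plus strand), Musk (chr4:58298469-58298568, plus strand), Acta1 (chr8:126419217-126419316, minus strand) and Obsl1 (chr1:75503206-75503305, minus strand).
Mybph: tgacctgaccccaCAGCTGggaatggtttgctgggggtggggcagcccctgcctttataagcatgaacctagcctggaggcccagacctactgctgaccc
Tnnt1: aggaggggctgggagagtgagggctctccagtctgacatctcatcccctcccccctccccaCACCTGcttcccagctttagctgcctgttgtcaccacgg
Tpm2: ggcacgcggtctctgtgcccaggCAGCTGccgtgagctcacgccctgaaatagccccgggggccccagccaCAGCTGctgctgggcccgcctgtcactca
Eno3: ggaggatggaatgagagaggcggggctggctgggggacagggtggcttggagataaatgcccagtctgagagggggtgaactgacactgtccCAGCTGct
Kbtbd10: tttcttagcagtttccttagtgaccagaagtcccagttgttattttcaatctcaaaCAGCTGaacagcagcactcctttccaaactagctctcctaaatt
Trim72: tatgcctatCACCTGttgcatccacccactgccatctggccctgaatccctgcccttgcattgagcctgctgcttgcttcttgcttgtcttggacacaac
Musk: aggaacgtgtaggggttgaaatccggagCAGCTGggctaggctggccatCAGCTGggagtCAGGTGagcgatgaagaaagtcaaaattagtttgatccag
Acta1: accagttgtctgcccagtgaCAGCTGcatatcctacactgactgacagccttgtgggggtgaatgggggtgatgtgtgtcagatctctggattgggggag
Obsl1: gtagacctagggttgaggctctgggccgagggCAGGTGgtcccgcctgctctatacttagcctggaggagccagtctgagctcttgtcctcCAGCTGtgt

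A second set shows the same window at peaks without an E-box, which were the majority: the upstream region of Gapdh (chr6:125116730-125116829, minus strand), the start of Lama2 (chr10:27336772-27336871, minus strand) and the first intron of Rpl7a (chr2:26766368-26766467, plus strand), which lies in GC-rich sequence like many promoters of genes used in every cell.
Gapdh: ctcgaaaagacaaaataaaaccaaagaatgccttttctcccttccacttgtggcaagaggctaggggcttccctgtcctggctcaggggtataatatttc
Lama2: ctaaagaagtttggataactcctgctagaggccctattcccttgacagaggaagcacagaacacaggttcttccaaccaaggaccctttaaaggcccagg
Rpl7a: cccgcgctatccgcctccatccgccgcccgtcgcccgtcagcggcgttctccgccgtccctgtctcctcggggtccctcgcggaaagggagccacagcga

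At Musk, which encodes the receptor kinase that organizes the neuromuscular synapse, the window held 3 E-boxes, and the CAGCTG and CAGGTG nearest the center were separated by 5 bp. At Tpm2, which encodes a tropomyosin of the thin filament, 2 copies of CAGCTG lay 24 bp to either side of the center. Rimbp3 had the most E-boxes of any member, with 5 over an interval of 283 bp in its first exon, which is coding sequence. The central part of that interval, shown because it carries a pair of CAGCTG sites, lies at chr16:17209017-17209116, plus strand.
Rimbp3: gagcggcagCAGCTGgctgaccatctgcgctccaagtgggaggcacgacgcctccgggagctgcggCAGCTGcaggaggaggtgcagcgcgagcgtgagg

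The question put to these peaks was whether the DNA under them held the E-box, and how they compared with promoter peaks called only in the control and with promoter peaks called in both. An E-box was present at 143 of 563 members, or 25.4% (95% Wilson interval 22.0 to 29.2). At the 1161 control-only promoter peaks the share was 17.5%, which was 7.91 points lower (95% Newcombe interval of the difference 3.80 to 12.2). With a TSS limit of 0.5 kb the difference was 4.89 points, and its interval, -0.125 to 10.3, included 0. Shared promoter peaks held an E-box in 47.9%, and the 3082 bexarotene-only peaks away from promoters held one in 56.9%. Members were 22.5 points below the shared peaks (15.5 to 29.4) and 31.5 points below the distal ones (27.3 to 35.3). Windows placed at the same distances from all 45947 annotated starts held an E-box in 12.7%. These windows, called all promoters here, count every start of a gene, internal ones included. Members thus lay between all promoters and the shared peaks, above the control-only promoter peaks. The share of members itself was 38.9% with a window of 100 bp to either side, 43.5% for any CANNTG and 16.7% for CAGCTG alone. It was 38.8% of 160 members when both myogenin lists were first limited to intervals longer than the smallest. That filter also drops the smallest control intervals, so these 160 include peaks that overlap one and that the main rule counts as shared. All the 95% intervals cover counting error over peaks, not the variation between cultures, and no p-value can be given with 1 library per condition.

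**Figure D1:**
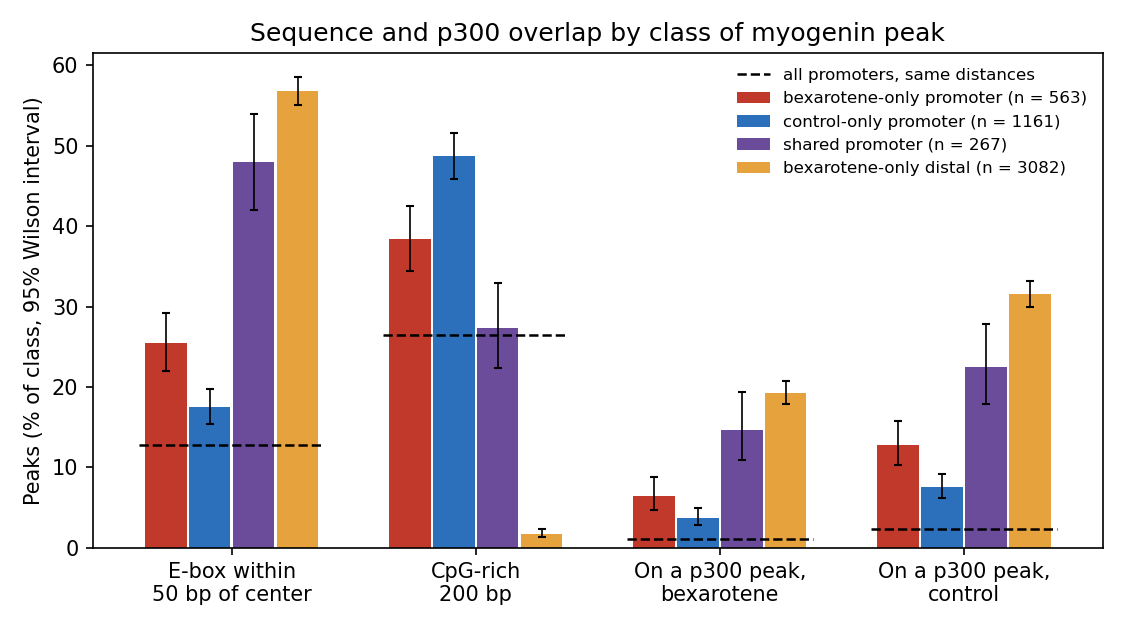
Bars give the percent of peaks in each class with an E-box within 50 bp of the center, with CpG-rich sequence over 200 bp, or on a p300 peak of either list, error bars are 95% Wilson intervals, and dashed lines give all promoters at the same distances. Members (red) stood at 25.4% for the E-box, above control-only promoter peaks at 17.5% and below shared promoter peaks at 47.9%.

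Which E-box was present differed between the classes. CAGCTG, the palindromic form, lay within 50 bp of the center at 16.7% of members and 8.70% of control-only promoter peaks, a difference of 8.0 points (4.64 to 11.6). The other form, CACCTG or CAGGTG, was found at 11.2% and 9.91%, and the interval of that difference, -1.70 to 4.57 points, includes 0. Of the 175 E-boxes under the members 61.1% were CAGCTG (53.8 to 68.1), against 46.4% of 233 at control-only promoter peaks (40.1 to 52.8) and 72.9% of 177 at shared promoter peaks. Among all 2080 pairs of a 6-base sequence and its reverse complement, CAGCTG had the highest excess of members over control-only promoter peaks. The sequence with the lowest was CCCCGC, found at 9.95% of members and 17.8% of control-only promoter peaks.

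E-boxes gathered at the center of the members. Their density was 0.305 per 100 bp within 60 bp of the center and 0.144 per 100 bp between 260 and 500 bp away, a ratio of 2.12. The same ratio was 1.69 at control-only promoter peaks, 4.87 at shared promoter peaks and 5.51 at the bexarotene-only distal peaks. The flanks of the members were thus close to those of the other classes in E-box density, and the classes parted at the center.

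**Figure D2:**
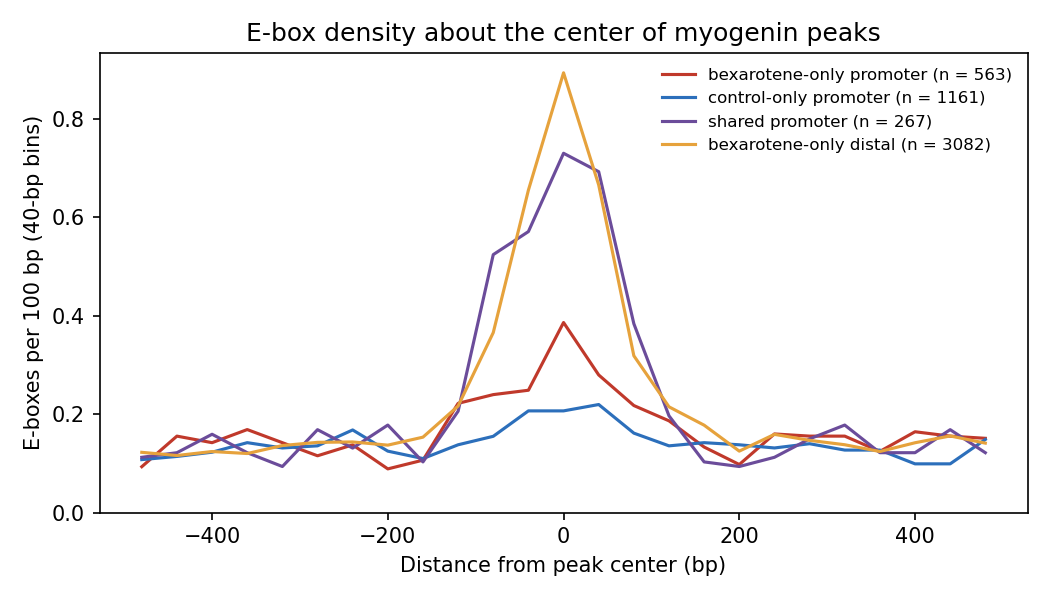
Lines give the number of E-boxes per 100 bp in 40-bp bins by distance from the peak center in bp for the 4 classes of myogenin peak. The members (red) rise at the center to a level between the control-only promoter peaks and the shared promoter and distal peaks, and all classes run close together beyond 200 bp.

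Most members with an E-box had a single one: 113 had 1, 28 had 2 and 2 had 3 or more within 50 bp of the center. At least 2 E-boxes were present at 5.33% of members, 2.41% of control-only promoter peaks and 15.4% of shared promoter peaks, and members exceeded the control-only class by 2.92 points (1.03 to 5.21). The 32 neighbouring pairs of E-boxes under the members were 1 to 70 bp apart with a median of 25 bp. A gap of 10 bp or less was seen in 7 of these pairs (21.9%, 11.0 to 38.8), at Spsb2, Atp2a3, Gm11570, Musk, Tulp4, Ankrd2 and C1galt1c1, which were named after their values were seen. Of the 30 pairs at control-only promoter peaks 7 had such a gap (23.3%). So did 15 of 49 at shared promoter peaks (30.6%) and 159 of 569 at bexarotene-only distal peaks (27.9%). Over the whole interval Ddit4 and Obsl1 had 4 E-boxes each, and 13 members had 3. The longest of the 13 were at Ncoa1, Baiap2l1, Cpa1, Zfp238, Gm11570, Mrgpre and Cep170, and the shorter ones included the upstream peak at Musk.

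The base composition of the members was less CpG-rich than that of promoter peaks called only in control. A peak was called CpG-rich when the 200 bp around its center had a GC content of at least 50.0% and an observed over expected CpG ratio of at least 0.6, which marks the promoters of many broadly expressed genes. This held for 38.4% of members (34.4 to 42.4), 48.8% of control-only promoter peaks, 27.3% of shared promoter peaks, 1.75% of the distal bexarotene-only peaks and 26.5% of all promoters at the same distances. Members were 10.4 points below the control-only class (5.40 to 15.3). Both myogenin lists were also first limited to intervals longer than the smallest, which gave 160 peaks, some of them shared under the main rule. The difference from the control-only class was then -21.2 points (-29.4 to -12.2). The share of members itself was 24.5% under a stricter CpG rule and 51.9% with a TSS limit of 0.5 kb. The median GC content was 55.5% under the members and 59.0% under control-only promoter peaks.

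Because the classes differ in CpG content, the E-box shares were also set side by side within each kind of sequence. Among CpG-rich peaks the E-box was present at 21.8% of members and 14.5% of control-only promoter peaks, and among the others at 27.7% and 20.3%. The differences were 7.27 points (1.38 to 13.8) and 7.33 points (1.72 to 13.1), both close to the value over all peaks. Length of the interval moved the comparison more. The caller's smallest interval, 168 bp in the bexarotene list and 172 bp in the control list, was the length of 78.7% of members and 73.0% of control-only promoter peaks. At that length 22.8% of members and 18.1% of control-only promoter peaks had an E-box, a difference of 4.74 points (0.165 to 9.54). Among longer intervals the shares were 35.0% (42 of 120) and 15.9%, a difference of 19.1 points (9.96 to 28.7).

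The longest members were at Rhobtb2 (481 bp), Aarsd1 (445 bp), Tmem182 (361 bp), Urod (352 bp), Wdr31 (346 bp), Smyd1 (316 bp), Tomm40 (315 bp), 2610002D18Rik (312 bp), Sun2 (312 bp) and Atf1 (301 bp). Smyd1 encodes a methyltransferase needed for assembly of the sarcomere, Tomm40 the channel of the outer mitochondrial membrane import complex, and Sun2 a protein that ties the nucleus to the cytoskeleton. The center had an E-box nearby at Aarsd1, Tmem182 and Smyd1 and none at the other 7.

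Other consensus sequences were counted within 100 bp of the center. CATTCC, the MCAT site of TEAD factors, was found at 12.6% of members (10.1 to 15.6), 8.35% of control-only promoter peaks (6.90 to 10.1), 12.4% of shared promoter peaks, 18.9% of bexarotene-only distal peaks and 9.44% of all promoters. TGTGGT, the core of the Runx site, was found at 13.9% of members (11.2 to 17), 8.70% of control-only promoter peaks (7.21 to 10.5), 12% of shared promoter peaks, 29.6% of bexarotene-only distal peaks and 11.5% of all promoters. The GC box GGGCGG went the other way, with 20.1% of members (17 to 23.6), 28.4% of control-only promoter peaks (25.9 to 31.1), 16.1% of shared promoter peaks, 5.03% of bexarotene-only distal peaks and 19.5% of all promoters. Among peaks that were not CpG-rich, GGGCGG was found at 8.07% of 347 members and 12.1% of 595 control-only promoter peaks. CCAAT, bound by NF-Y, was found at 17.2% of members, 14% of control-only promoter peaks and 22.2% of all promoters.

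Of the sequences read by nuclear receptors, the half-site and one spacing of its direct repeat were counted. AGGTCA, the half-site of RXR and its partners, was found at 10.5% of members, 9.99% of control-only promoter peaks and 10.7% of all promoters. It can share bases with the E-box form CAGGTG where the letters overlap, and it was counted without regard to that. The direct repeat of AGGTCA with 1 base between (DR1) was found at 0 members, 0.0861% of control-only promoter peaks, 0.375% of shared promoter peaks and 0.0256% of all promoters, too rare for the count at the members to be read either way. Other receptor repeats were not counted. A match is a run of letters and not a bound site, and the absence of one says only that these letters are not in the window.

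Sites of muscle factors with longer consensus were rare. The Mef2 consensus was found at 6 members, or 1.07% (0.489 to 2.31), against 0.689% of control-only promoter peaks and 0.281% of all promoters. The members were at Mypn, Kbtbd10, Rap2b, Trp53inp1, Smyd1 and Trim72. Mypn encodes the Z-disc protein myopalladin, Kbtbd10 a kelch protein of the sarcomere, and Trim72 the membrane repair protein MG53. At Mypn, Kbtbd10, Smyd1 and Trim72 the same peak also held an E-box. The SRF CArG box was found at 11 members (1.95%), against 0.861% of control-only promoter peaks and 0.870% of all promoters, and these included Lama2, Dag1, Aarsd1 and Sun2.

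The members lay on both sides of the gene start. Their centers were downstream of the nearest TSS in 54.5% (50.4 to 58.6), against 59.9% of control-only promoter peaks and 41.2% of shared promoter peaks. The fullest 200-bp bin was the one from the TSS to 200 bp downstream, with 19.4% of members and 21.5% of control-only promoter peaks. Just upstream, from -200 bp to the TSS, lay 12.8% of members (10.3 to 15.8) and 8.10% of control-only promoter peaks (6.66 to 9.81). Between 200 and 400 bp downstream the order was turned, with 8.53% of members (6.49 to 11.1) and 14% of control-only promoter peaks (12.1 to 16.1). Distance from the TSS was limited to 1 kb by the choice of the members, and only the placement within that limit is described.

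**Figure D3:**
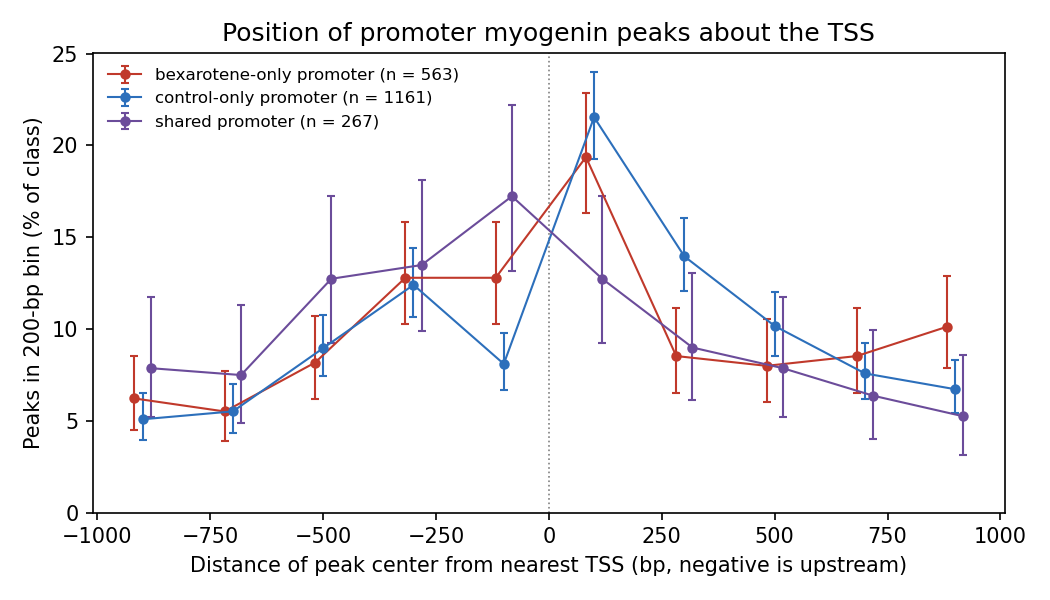
Points give the percent of each class of promoter myogenin peak in 200-bp bins of the distance from the peak center to the nearest TSS in bp, with 95% Wilson intervals. Members (red) had 12.8% in the bin just upstream of the TSS and 19.4% in the bin just downstream, where control-only promoter peaks had 8.10% and 21.5%.

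In the annotation 192 member centers lay outside genes, 244 in introns, 81 in untranslated exons and 46 in coding exons. The E-box share was close in all 4 places, from 24.6% in introns to 28.3% in coding exons. Of all members 83.8% lay within 1 kb of the outermost start of a gene, and the other 91 lay only near an internal alternative start. Members at internal starts had an E-box in 38.5% (29.1 to 48.7) and were CpG-rich in 16.5%, and those at outermost starts had one in 22.9% (19.3 to 26.9) and were CpG-rich in 42.6%. Among all members, 58 lay where outermost starts of genes on opposite strands were both within 1 kb, and 10 of these 58 held an E-box (17.2%, 9.64 to 28.9), beside 133 of the other 505 (26.3%, 22.7 to 30.3).

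The p300 lists were not used to choose the members and were compared next. A bexarotene p300 peak overlapped 36 members, or 6.39% (4.65 to 8.73), where 25.6% of all bexarotene myogenin intervals had such an overlap. The share was 3.70% at control-only promoter peaks, 14.6% at shared promoter peaks, 19.3% at bexarotene-only distal peaks and 1.10% of windows of 168 bp at all promoters. Members exceeded control-only promoter peaks by 2.69 points (0.549 to 5.21), and the difference was 0.547 points (-2.63 to 4.0) when a p300 interval within 500 bp of the center was enough. With a TSS limit of 0.5 kb it was 2.47 points (-0.353 to 5.91), and with outermost starts alone 1.83 points (-0.362 to 4.46), so these intervals also included 0. Limiting both myogenin lists to intervals longer than the smallest before the selection changed the members to 160 peaks, some of them shared under the main rule. For these 160 the share was 12.5% and the difference 8.02 points (2.99 to 14.3). A control p300 peak overlapped 72 members, or 12.8% (10.3 to 15.8), where 36.1% of all bexarotene myogenin intervals overlapped one, and the share was 7.49% at control-only promoter peaks and 2.36% at all promoters. The control p300 list holds 22051 intervals and the bexarotene p300 list 9154, and the part of that difference in these shares was not tested.

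Most members, 481 of 563, overlapped no p300 peak of either list. Both p300 lists had a peak at 26 members, the control list alone at 46 and the bexarotene list alone at 10. The 10, named after their values were seen, were at Sertad2, 2810021B07Rik, Tubb2b, Nfil3, Mmp14, Yif1a, Tpm2, Gm10463, Dctn1 and Cryab. Mmp14 encodes a membrane-bound matrix metalloproteinase, Nfil3 a basic leucine zipper repressor, and Cryab the small heat shock protein alpha-B crystallin, which is abundant in muscle. Members with an E-box overlapped a bexarotene p300 peak in 11.9% (17 of 143, 7.56 to 18.2) and those without in 4.52% (19 of 420, 2.91 to 6.96). The same shares were 20.3% and 9.35% at shared promoter peaks. At bexarotene-only distal peaks the order was turned, with 18.4% and 20.5%. Interval length was not held fixed in these shares.

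Of 22238 protein-coding genes 597 had a member within 1 kb of a start, which is 2.68% (2.48 to 2.91), and 64 members lay near 2 or more genes. The gene lists were read against that share. Over all muscle lists 30 of 339 genes had a member, or 8.85% (6.27 to 12.4). Control-only promoter peaks were found at 33 of the 339 (9.73%, beside 5.15% of all genes) and shared ones at 26 (7.67%, beside 1.18%). Each class of promoter peak thus stood above its own background at muscle-list genes.

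Genes of the sarcomere and contraction had the highest share of the lists, 14 of 91 or 15.4% (9.39 to 24.2), beside 2.68% of all genes. Control-only and shared promoter peaks were each found at 9 of the 91 (9.89%), beside 5.15% and 1.18% of all genes. The 14 with a member included the skeletal actin Acta1, the essential light chain Myl4, the regulatory light chain Mylpf, the myosin binding protein Mybph, the slow troponin T Tnnt1, the tropomyosin Tpm2, the M-band protein Myom2 and the obscurin-like Obsl1. Ankrd2 and Ankrd23, ankyrin repeat proteins of the I-band, also had one, and a single member served the neighbouring starts of Cryab and Hspb2. Among myogenic regulators 6 of 81 genes had a member (7.41%, 3.44 to 15.2): Bhlhe41, Celf2, Hdac9, Hes6, Id1 and Runx1. Control-only promoter peaks were found at 11 of the 81 (13.6%) and shared ones at 3 (3.70%). Id1 encodes an inhibitor that binds E proteins and keeps them from DNA, and Hdac9 a class II deacetylase that represses Mef2.

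In the list of the acetylcholine receptor and synapse 3 of 23 genes had a member (13.0%, 4.54 to 32.1), namely Musk, the dystroglycan gene Dag1 and the laminin gene Lama2. Control-only promoter peaks were found at 4 of these 23 genes (17.4%) and shared ones at 5 (21.7%). Among genes of excitation-contraction coupling 1 of 42 had a member (2.38%), Cacng1, the gamma subunit of the skeletal calcium channel, which is near the share over all genes, and control-only and shared promoter peaks were found at 2 and 4 (4.76% and 9.52%). The fusion, adhesion and membrane list had 3 of 60 (5.0%), Bves, Ehd1 and Trim72, beside 3 for control-only and 4 for shared promoter peaks. Glycolysis and creatine kinase had 3 of 44 (6.82%), Eno3, Gapdh and Pkm2, beside 4 and 1. Eno3 encodes the muscle form of enolase.

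Lists not drawn up as muscle lists, apart from the markers of other tissues, were also above or near the share over all genes. Ribosomal proteins had 6 of 81 (7.41%, 3.44 to 15.2), oxidative phosphorylation 5 of 93 (5.38%, 2.32 to 12) and histones 2 of 67 (2.99%, 0.822 to 10.2). In the same order, control-only promoter peaks were found at 5, 6 and 4 genes and shared ones at 1, 1 and 0. Cell cycle genes had 4 of 55 (7.27%, 2.86 to 17.3), Cdkn2c, E2f3, Gadd45b and Myc, and control-only promoter peaks were found at 9 of the 55 (16.4%). The nuclear receptors and their cofactors had 2 of 55 (3.64%), Ncoa1 and Nr6a1, against 6 (10.9%) for control-only promoter peaks, and neither an RXR nor a retinoic acid receptor gene had a member. The AP-1 list had 2 of 25 (8.0%), Atf1 and Jund, against 4 (16%) for control-only promoter peaks. Markers of tissues other than muscle had 0 of 10, which allows up to 27.8%.

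**Figure D4:**
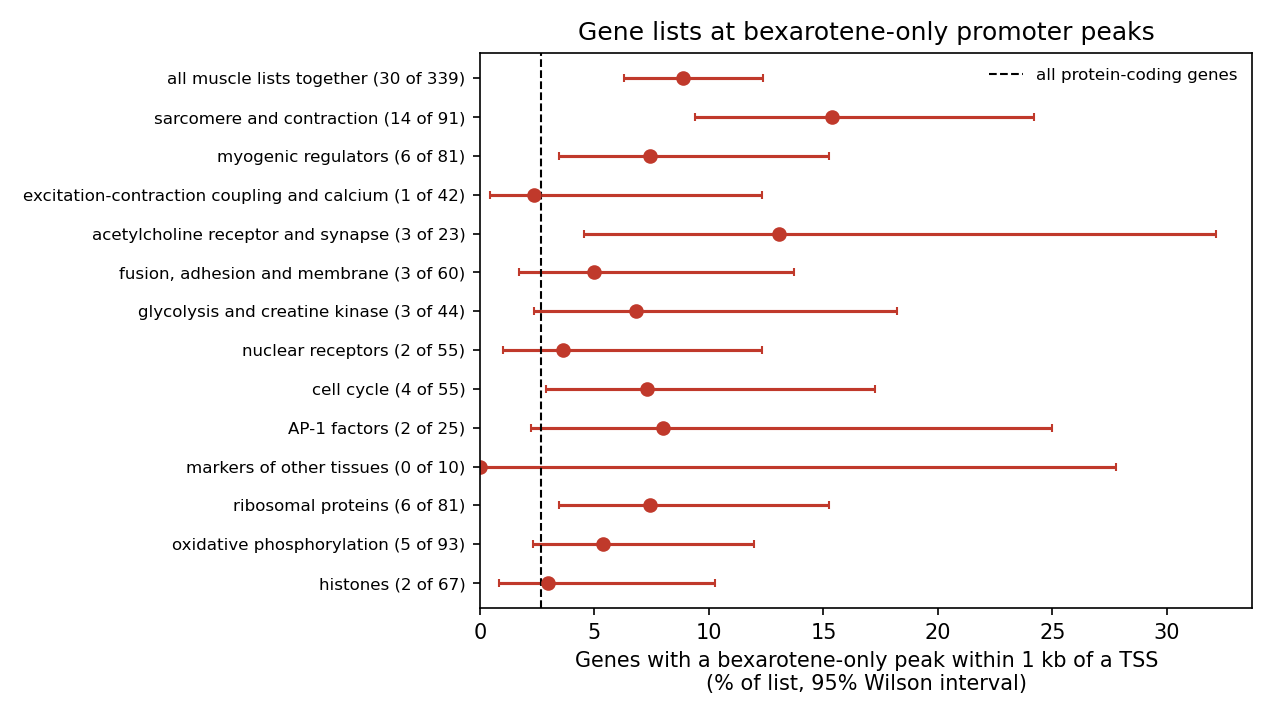
Points give the percent of genes in each list that have a member within 1 kb of a start, with 95% Wilson intervals, the counts stand beside the names, and the dashed line marks the 2.68% of all protein-coding genes. The sarcomere and contraction list is highest at 15.4%, and the ribosomal protein list stands at 7.41%.

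The nearest start belonged to a muscle-list gene at 32 members, and these differed from the other 531 in sequence and place. The lists do not hold every muscle gene, and the peak at Mypn is among the 531. An E-box was present at 20 of 32, or 62.5% (45.3 to 77.1), and at 123 of 531, or 23.2% (19.8 to 26.9), a difference of 39.3 points (21.7 to 54.3). For CAGCTG alone the shares were 34.4% and 15.6%, a difference of 18.7 points (4.39 to 36.3), and for CACCTG or CAGGTG they were 34.4% and 9.79%. This rests on the members at the smallest length, where 16 of 23 muscle-list members and 85 of 420 others had one. Among members longer than that the shares were 4 of 9 and 38 of 111, a difference of 10.2 points (-17 to 40.2). Both myogenin lists were also first limited to longer intervals, which changes the members and adds peaks that are shared under the main rule. The difference then turned to -8.69 points (-28.5 to 19.2). Windows at the same distances from all 923 starts of muscle-list genes held an E-box in 14.5%. Among members that were not CpG-rich the shares were 18 of 28 and 78 of 319, a difference of 39.8 points (20.7 to 55.5).

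Promoter peaks of the other classes at muscle-list genes had E-boxes too. The share was 41.7% (15 of 36) at control-only promoter peaks and 63.0% (17 of 27) at shared ones. Members at muscle-list genes were 20.8 points above the control-only class, with an interval from -2.78 to 41.4 that includes 0. Members at all other genes were 6.45 points above control-only promoter peaks at other genes (2.36 to 10.8). The excess of E-boxes over control-only promoter peaks was thus also present without the muscle-list genes.

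Muscle-list members lay upstream of the start more often, at 24 of 32, and 25% were downstream (13.3 to 42.1) against 56.3% of the other members (52.1 to 60.5). They were CpG-rich in 12.5% (4.97 to 28.1) against 39.9% (35.8 to 44.1). Shared promoter peaks at muscle-list genes were downstream in 18.5% and CpG-rich in 3.70%, and control-only ones were downstream in 55.6% and CpG-rich in 44.4%. Over their whole intervals these 32 members held 34 E-boxes, of which 29 were upstream of the TSS, 17 within 250 bp upstream, and 19 were CAGCTG. A bexarotene p300 peak overlapped 5 of the 32 (15.6%, 6.86 to 31.8), those at Cacng1, Runx1, Tpm2, Cryab and Pkm2, and 31 of the other 531 (5.84%, 4.14 to 8.17). A control p300 peak overlapped 3 of the 32 (9.38%, 3.24 to 24.2) and 69 of the other 531 (13%, 10.4 to 16.1), so the order was turned, and both pairs of intervals overlapped.

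**Figure D5:**
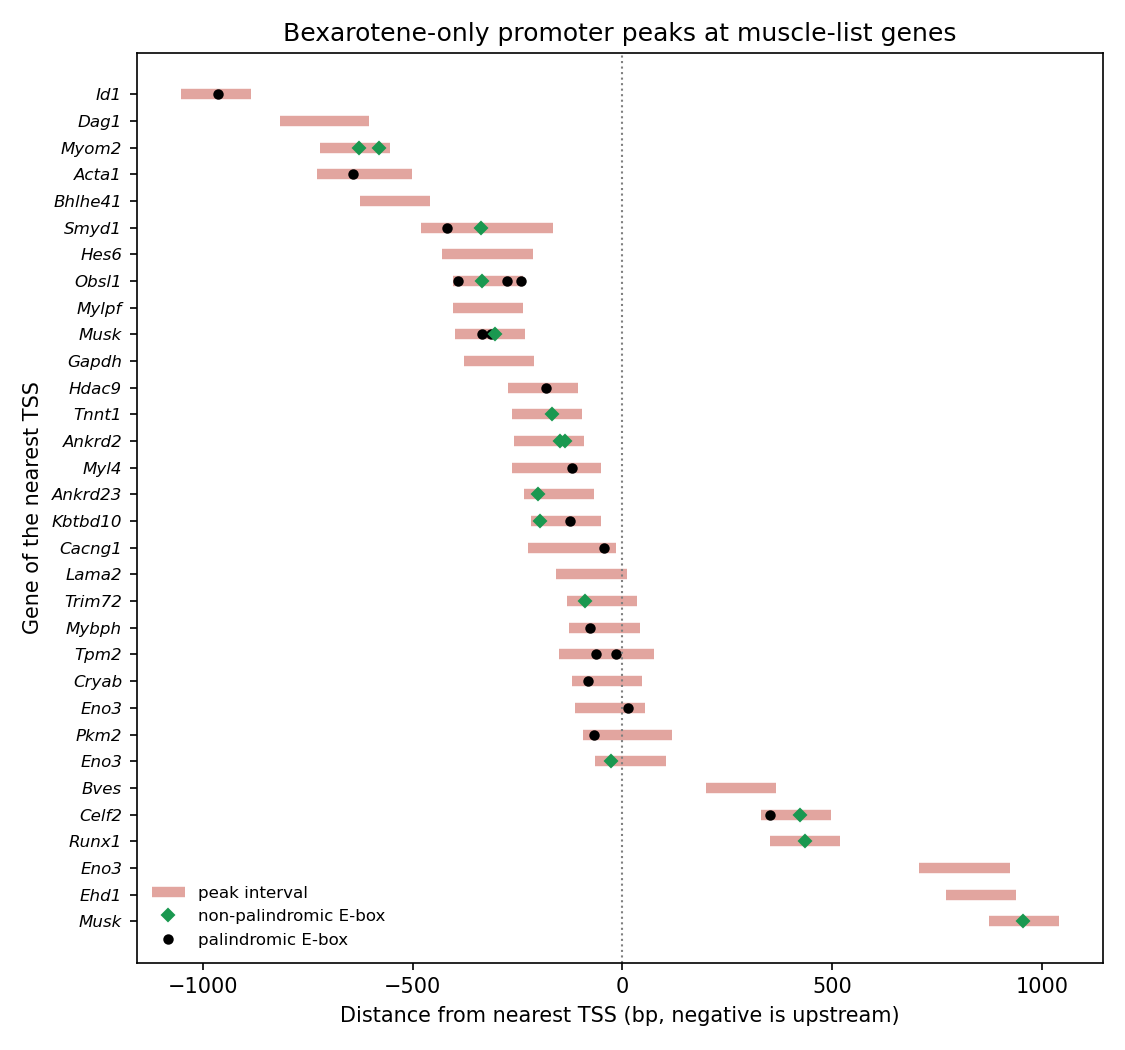
Bars give the intervals of the 32 members whose nearest TSS is of a muscle-list gene, by distance from that TSS in bp, with palindromic E-boxes (CAGCTG) as circles and non-palindromic ones (CACCTG or CAGGTG) as diamonds. Of the 34 E-boxes 29 lie upstream of the TSS, and 24 of the 32 peaks are centered upstream.

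Close to the start, the Mybph peak was centered 42 bp upstream with CAGCTG at -77, and the Tpm2 peak 38 bp upstream with CAGCTG at -62 and -14. The Cryab peak, centered 36 bp upstream, had CAGCTG at -82. Trim72 had its peak at -49 and CACCTG at -88. All 4 intervals covered the TSS, with these E-boxes on its upstream side. The Eno3 peak centered at -30 also covered the TSS and had its CAGCTG downstream, at 14, and the Lama2 peak at -74 covered the TSS and held none.

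A second group lay farther upstream of the start. The Tnnt1 peak at -181 had CACCTG at -167, Kbtbd10 at -133 had CAGCTG at -125, and Myl4 at -156 had CAGCTG at -119. Hdac9 had its peak at -189 with CAGCTG at -181. Ankrd2 at -175 had a close pair at -149 and -136, and Musk at -315 had a run of 3 at -335, -314 and -303. Smyd1 at -324 and Obsl1 at -320 held 2 and 4 E-boxes over the interval. In contrast Mylpf at -320, Hes6 at -322 and Gapdh at -295 held none.

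Farther out were Acta1 at -616 with CAGCTG at -643, Myom2 at -636 with E-boxes at -628 and -580, and Id1 at -969 with CAGCTG at -964. Dag1 at -710 and Bhlhe41 at -543 held no E-box. Downstream of the start, Runx1 had its peak at 436 with an E-box at 435 in an untranslated exon, and a second Musk peak at 957 had one at 955. Both E-boxes lay 1 bp from the center of the peak. Celf2 at 413 held an E-box at 424 and another at 353, and Bves at 284, Eno3 at 817 and Ehd1 at 856 held none.

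Some genes had several members. In all, 30 genes had 2 or more, and Rdh5, which encodes a retinol dehydrogenase that makes retinaldehyde, had 4, named here after its values were seen. Of these, 3 were nearest to Rdh5 itself, at 160, 65 and -612 bp from annotated starts, and the fourth was nearest to the neighbouring gene Bloc1s1. None of the 4 held an E-box within 50 bp of the center, and 2 overlapped a control p300 peak. Eno3 had 3, centered at -30, 20 and 817 bp from separate starts, with an E-box at the first and the second. Musk had 2.

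Absence from the control list did not mean that the neighbourhood was free of control peaks. A control myogenin peak lay within 100 bp of 15 members, within 500 bp of 76 and within 1 kb of 125 (22.2%, 19 to 25.8), and within 10 kb of 243. Within 1 kb there was a control peak at 8.47% of bexarotene-only distal peaks, and a bexarotene peak at 15.4% of control-only promoter peaks. At 139 of the 597 genes a control-only promoter peak was also present, which is 23.3% of the member genes and 12.1% of the 1146 genes with a control-only promoter peak, where 5.15% of all protein-coding genes had a control-only promoter peak. A shared promoter peak was present at 29 of the 597 (4.86%), where 1.18% of all genes had one. At 26 of the 125 members with a control peak within 1 kb there was an E-box (20.8%, 14.6 to 28.7), and at 117 of the 438 others (26.7%, 22.8 to 31.0).

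Among the muscle-list members Acta1 had a control peak 322 bp away, Tpm2 310 bp, Bhlhe41 331 bp, Hes6 474 bp, Mylpf 567 bp and Lama2 570 bp away. At Cryab, Tnnt1, Smyd1, Hdac9 and Celf2 no other myogenin peak of either list was found within 50 kb. Another myogenin peak lay within 50 kb of 71.2% of all members (67.4 to 74.8), beside 73.8% of control-only promoter peaks, 78.7% of shared promoter peaks and 68.9% of bexarotene-only distal peaks. One called in both conditions lay within 50 kb of 30.6% of members, 30.3% of control-only promoter peaks, 50.2% of shared promoter peaks and 39.5% of bexarotene-only distal peaks.

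The edges of the set are given as a description. Just inside the limit of 1 kb were the peaks at Acsl3 (-999 bp), Kctd7 (997 bp) and Plekhb1 (-997 bp), and just outside it were those at Rbms2 (1002 bp), Znfx1 (-1003 bp) and Tbx15 (1004 bp). The members nearest to a control peak were at Myo10, Gtpbp1 and Fnip1, with gaps of 7, 11 and 12 bp. The promoter peaks left out for the smallest overlaps were at Tcp11l2, Orai1 and Scx, with overlaps of 4, 5 and 24 bp. Of these 12 peaks only the one at Plekhb1 had an E-box within 50 bp of the center.

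Members were spread unevenly over the chromosomes. There were 6.19 per 100 protein-coding genes on chromosome 15, 5.10 on chromosome 10 and 4.55 on chromosome 11, and 0.216 on chromosome X. Control-only promoter peaks had 14, 13.6 and 7.76 per 100 genes on chromosomes 15, 10 and 11 and 0.324 on X. The orders were not the same throughout, since chromosome 19 had 7.78 control-only promoter peaks per 100 genes and 3.33 members.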

How the data were processed

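Myogenin and p300 were profiled by ChIP-seq in C2C12 cells after 24 h of differentiation without or with 50 nM bexarotene, in 1 library per condition and factor, and 4 of the 8 samples, those with a peak list, were used. The authors mapped myogenin reads with BWA-MEM and p300 reads with Bowtie to mm9, removed duplicates with Picard and called peaks in each library separately with HOMER findPeaks in its factor mode with the region setting. The deposited lists hold other values than counts or scores, namely the chromosome, start and end of each peak, so the caller's threshold could not be varied and the reads behind each peak cannot be read from them. Positions are printed counted from 1.

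From these lists the members were selected with an overlap of 1 bp and a TSS distance of 1 kb. GENCODE protein-coding starts of the same build stood in for the RefSeq catalog of the study's methods. Sequence came from the mm9 genome, and motifs were counted on both strands. Shares carry 95% Wilson intervals and differences 95% Newcombe intervals, which cover counting error over peaks only, and no test was made with 1 library per condition. Alternatives changed the overlap rule, the TSS distance and catalog, the chromosomes, the interval length, the motif and its window, the p300 list and its distance, the CpG rule and the neighbour rule. The members, the gene lists and the comparisons were chosen with earlier results of these data known. Genes were named by rule: all members nearest a muscle-list gene, the 10 longest, the 10 with most E-boxes (ties by length), those in the nuclear receptor, cell cycle and AP-1 lists, and 3 on each side of the 1 kb limit. At the overlap limit, the 3 members nearest to a control peak and the 3 promoter peaks with the smallest overlap were also named. Others are marked where named, and genes counted in the remaining lists or with rare motifs are named as examples. The input and H3K27me3 samples were not used here.

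Python 3.11.15 was used with numpy 2.4.6, pandas 2.3.3, pysam 0.24.0 and matplotlib 3.10.9. The functions were tested on simulated data in 7 steps, most of them of 200 items, and all 7 were recovered.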

Additional observations from a re-analysis of the deposited data

How the results depend on the processing

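Of 118 alternative values over 18 settings, 84 stayed within the limits set for them, 33 moved and 1 turned direction, and the cause was not tested in any case beyond the change of members that a setting makes. With only intervals longer than the smallest there were 160 members, some of which overlap a smallest control interval and are shared under the main rule. An E-box was present in 38.8%, 19.98 points above control-only promoter peaks. A bexarotene p300 peak overlapped 12.5%, 8.02 points above, and 27.5% were CpG-rich, a difference of -21.2 points. The 160 were downstream in 50.0% and near an outermost start in 78.8%. A neighbour within 50 kb was present in 51.2%, with the smallest intervals also removed from the neighbours counted. The E-box difference between muscle-list and other members turned to -8.69 points. A TSS distance of 0.5 kb gave 343 members, CpG-rich in 51.9%, with differences from control-only promoter peaks of 4.89 points for the E-box and 2.47 points for p300 whose intervals included 0, and 2 kb gave E-boxes in 29.4% and CpG-rich sequence in 28.6%. With starts of every biotype the E-box share was 29.3%, the CpG-rich share 32.7% and the share near an outermost start 68.9%, and with outermost starts alone the CpG-rich share was 42.6% and the p300 difference 1.83 points with an interval that included 0. The E-box share was 38.9% within 100 bp, 37.3% over the whole interval (difference from distal peaks -35.5 points), 16.7% for CAGCTG alone and 43.5% for any CANNTG, and CAGCTG alone put muscle-list members 18.7 points above the others. On the control p300 list the share was 12.8% and the difference 5.30 points, and with p300 within 500 bp 12.4% and 0.547 points. The CpG-rich share was 43.3% over 500 bp and 24.5% with the stricter rule of a ratio of 0.75 and 55% GC. The share with a neighbouring myogenin peak was 63.0% when a control interval within 1 kb counted as shared, 52.0% within 10 kb and 30.6% for neighbours called in both lists. These settings can only lower the share, since they remove members with a near control peak or narrow the neighbours counted. The muscle-list alternatives were added after seeing the data. The outermost starts give a share near an outermost start of 100% by construction, which was not run. No paired analysis was possible because each condition has 1 library and the labels carry no replicate numbers. What depth limits cannot be read from lists of positions.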
